A study of Mus musculus with 4 samples.

Results

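Venous blood endothelial cells, which line venules and veins, were picked out of single-cell RNA libraries of mouse digits by the transcripts they held. A unique molecular identifier (UMI) is a tag that marks 1 captured transcript. A barcode counted as blood endothelial when it had at least 1 UMI for at least 3 of Pecam1, Cdh5, Emcn, Plvap and Kdr. It also had to hold none for Prox1 and Mmrn1, which mark lymphatic endothelium. It counted as venous when it also held at least 2 of Ackr1, Selp, Sele and Vwf and fewer than 2 of the arterial genes Gja5, Gja4, Sox17 and Sema3g. The members were thus chosen by the measured UMIs of these genes. The limits gave 1205 venous cells among 2714 blood endothelial cells and 93602 kept cells of all types, out of 113503 deposited barcodes. A further 824 cells passed the endothelial genes but held Prox1 or Mmrn1. These lymphatic cells brought the endothelial cells to 3538. The 15 genes that set the gate are given below as descriptions without a test, and every comparison was made on the other genes.

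Postcapillary venules and small veins are where leukocytes leave the blood. E-selectin (Sele) and P-selectin (Selp) catch passing leukocytes, P-selectin is stored with von Willebrand factor (Vwf) in Weibel-Palade bodies for rapid release, and the atypical receptor ACKR1 carries chemokines across the venular wall. The transcription factor COUP-TFII (Nr2f2) holds venous identity by restraining Notch signaling, whereas VEGF and Notch act in arterial and sprouting endothelium.

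The digits came from female mice of 6 to 8 weeks labelled C57BL/6 (the methods name C57BL/6J), amputated through the terminal phalanx (P3), and were dissociated with enzymes without sorting. In one experiment, the inguinal and popliteal nodes were exposed in a limb and removed (lymph node removal, LNR) and the opposite limb had sham surgery, so that the LNR and sham libraries may share mice. In the other, mice ate chow with SAR131675, an inhibitor of the lymphatic growth factor receptor VEGFR3 (Flt4), at 30 mg/kg, for 8 days by the deposited design text, or a matched control chow. The methods start the chow before amputation and keep it on throughout, so the length of treatment is uncertain, and the labels do not give the time after amputation. Each condition was 1 library of digits pooled from 10 mice, and each library was its own batch, so that treatment and batch cannot be told apart and no value between conditions has a replicate check. The labels call the sham group untreated, and its surgery is known from the deposited design text.

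Values by library are given in the order LNR, sham, SAR131675 diet and control diet throughout. The libraries held between 168507188 and 585284877 UMIs in 21669 to 38464 barcodes. Kept cells of the diet pair held more UMIs (medians 5725, 5851, 11316 and 10712), and the number of reads was not examined. Between 130 barcodes (LNR and sham) and 348 barcodes (SAR131675 and control diet) were shared within a pair and at most 3 across pairs, and no barcode was venous in more than 1 library. Markers of other cell types were present in venous barcodes: the summed level of 5 keratinocyte genes was 3266, 5418, 1280 and 1462 CPM (UMIs of a gene per 1000000 UMIs of the summed cells) there, against 11650 to 18223 CPM in non-endothelial cells, and that of 5 erythroid genes was 1002, 81.0, 789 and 2515 CPM. The sums ranged from 443 to 1382 CPM for 5 mural, 107 to 1406 CPM for 5 fibroblast and bone, 88.6 to 270.4 CPM for 6 leukocyte, 23.8 to 79.5 CPM for 5 platelet and 7.31 to 49.2 CPM for 5 Schwann cell genes, and 16.8 to 31.9 CPM for the other lymphatic genes. The T cell marker Cd3e had no UMI in 3 of the 4 libraries, and the platelet marker Gp9 likewise. Other members of these lists were present in every library. The listed platelet gene Itga2b was found in 32, 40, 36 and 25 venous cells and the leukocyte gene Lyz2 in 24, 21, 12 and 16. Doublet scoring called 58, 60, 32 and 12 venous barcodes as doublets (18.1%, 17.8%, 10.8% and 4.78% of venous cells). Of all kept cells it called 7.41%, 6.97%, 4.67% and 0.907%. The expected rate given to the scoring, 0.8% per 1000 kept cells, was higher at 15.9%, 16.5%, 23.3% and 19.2%. Doublets may thus remain among the barcodes that were not called. The called barcodes were kept in the main values.

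The number of venous cells was 321, 338, 295 and 251. They made up 1.62% of kept cells in LNR (exact binomial 95% interval 1.45 to 1.80), 1.64% in sham (1.47 to 1.82), 1.01% on SAR131675 chow (0.903 to 1.14) and 1.04% on control chow (0.920 to 1.18). Of blood endothelial cells, 45.1% (41.4 to 48.9), 46.2% (42.6 to 49.9), 41.6% (38.0 to 45.3) and 44.6% (40.4 to 48.8) were venous. The treated and control shares overlapped in each pair. The diet pair, with the lower share of all cells, had more kept cells and also fewer venous cells. Without the upper limits on genes and UMIs the venous cells numbered 325, 347, 394 and 301. The source of the lower share was not tested. These intervals, and all others between libraries, cover counting error only. With each barcode thinned to 1500 UMIs, 38.2%, 43.5%, 36.9% and 41.2% of blood endothelial cells met the venous gate.

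**Figure D1:**
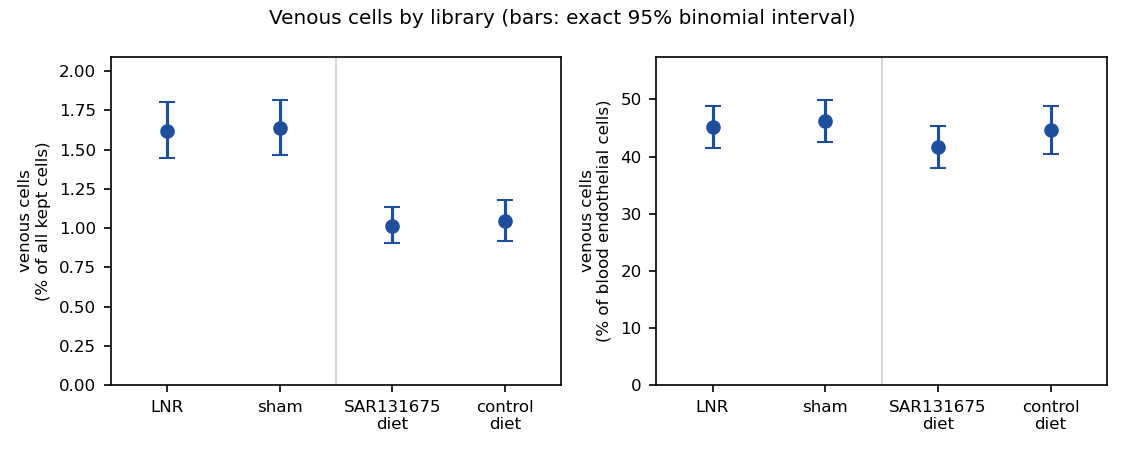
Venous cells as a percentage of all kept cells (left) and of blood endothelial cells (right) in the 4 libraries, with exact 95% binomial intervals as bars. Within each pair the intervals overlap, and the intervals of the LNR and sham libraries lie clear of those of the diet libraries on the left only.

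On the log2 scale, the venous share of kept cells differed by -0.04 between SAR131675 and control chow (95% interval -0.28 to 0.20) and by -0.01 between LNR and sham (-0.23 to 0.20). The venous share of blood endothelial cells differed by -0.10 (-0.28 to 0.08) and -0.03 (-0.20 to 0.13). Differences within these bounds were not detectable at these cell numbers, and the spread between libraries of a condition is unknown. Without barcodes holding 2 or more UMIs of another cell type the SAR131675 difference was -0.70 of kept cells (95% interval -1.39 to -0.0036), but that left 22 and 48 venous cells, since 89.8% of members on SAR131675 chow and 70.5% on control chow held keratinocyte UMIs at that limit.

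Of the 4 genes that defined the members, all were present in 612 cells, 3 in 378 and exactly 2 in 215. Ackr1 was detected in 69.2%, 68.3%, 68.8% and 68.1% of venous cells, Selp in 88.2%, 88.8%, 90.8% and 91.2%, Sele in 84.1%, 86.1%, 93.2% and 92.0%, and Vwf in 85.4%, 79.6%, 90.8% and 90.4%. In non-endothelial cells (median depth over all kept cells 5725, 5851, 11316 and 10712 UMIs), Ackr1 was found in up to 3.21% of cells and the other 3 genes in at most 1.00%. The most frequent incomplete combination lacked Ackr1 alone (217 cells), so that Ackr1 was the gene most often missing from an otherwise complete set.

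Cells just inside and just outside the gate were described with genes that the gate did not use. Lrg1, which encodes a secreted glycoprotein of inflamed venules, was at 191, 142, 131 and 164 CPM in endothelial cells with 1 of the 4 venous genes, at 431, 280, 359 and 199 CPM in those with 2, and at 1098, 1038, 841 and 907 CPM in those with all 4. Its level was higher with 2 than with 1 and with 4 than with 2 genes in each library, and cells with 3 were not measured separately. The capillary gene Rgcc went the other way and was at 475 CPM in LNR cells with none of the 4 venous genes and at 55.8 CPM in those with all 4. By Lrg1, the cells with exactly 2 venous genes lay between those with 1 and those with 4 in each library, but not every gene kept this order: Fabp4 in the control diet library was at 632 CPM with 1 gene and 482 CPM with 2, and Rgcc on SAR131675 chow at 152 and 156 CPM.

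The label was then described with genes outside the gate. The gene lists used for this were chosen with earlier results of these data known, so their counts are not an independent check. Other blood endothelial cells of the same gate served as references: 1012 capillary cells (under 2 venous and under 2 arterial genes) and 436 arterial cells (at least 2 arterial and under 2 venous genes). A further 61 cells held at least 2 genes of both kinds and entered neither class. Counts were summed per library and class and compared across the 4 libraries with edgeR's quasi-likelihood test with library as a block. The contrasts with capillary and with arterial cells share their venous sums. Median UMIs per cell were 4933, 4763.5, 9756 and 8531 in venous cells and 4159.5, 4280, 7300.5 and 6219.5 in capillary cells.

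Against capillary cells, 732 of 10993 genes were higher in venous cells (6.66% of all genes tested) and 575 were lower (5.23%). Of these 1307 genes, 1245 went the same way in 4 of 4 libraries, and 235 rose and 208 fell by more than 2-fold. Against arterial cells, 731 of 10823 genes were higher (6.75%) and 837 lower (7.73%). Without the SAR131675 diet library the capillary contrast had 725 genes, and without the control diet library the arterial contrast had 936. With barcodes thinned to 1500 UMIs the counts were 680 and 220, and without barcodes holding 2 or more UMIs of another cell type they were 463 and 357. The balance of the arterial contrast turned in both, to 131 higher and 89 lower and to 195 higher and 162 lower.

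Most venous identity genes outside the gate were higher in venous than in capillary and arterial cells, as were 6.66% and 6.75% of all genes tested. Of 24 genes in a list of venous and venular markers, 18 were higher than in capillary cells and 1 (Vwa1) was lower, with a median log2 difference of 0.89 against -0.01 over all genes; against arterial cells 15 were higher and 1 (Cpe) lower, with a median of 1.39 against 0.03. Nr2f2 was at 279, 276, 502 and 472 CPM in venous cells and at 125, 104, 109 and 139 CPM in capillary cells. It was 1.69 ± 0.15 (SE) higher on the log2 scale (adjusted p = 2.53e-05, edgeR), and its venous and capillary levels did not overlap. Lymphatic cells had more Nr2f2 (507, 452, 805 and 879 CPM), and of the 24 listed genes 13 were above and 2 (Nr2f2 and Ctsh) below the lymphatic level in all 4 libraries, given as a description. Ephb4, the receptor that marks veins opposite arterial ephrin-B2, was at 83.0, 57.3, 144 and 127 CPM and differed by 0.53 ± 0.11 from capillary cells (adjusted p = 0.00882, edgeR), but by only 0.23 ± 0.11 from arterial cells (adjusted p = 0.232, edgeR).

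Lrg1 and Icam1 were among the clearest of these venous genes. Lrg1 was at 849.7, 739.7, 693 and 731 CPM in venous cells, at 146, 125, 121 and 152 CPM in capillary cells and at 102, 101, 69.4 and 91.0 CPM in arterial cells. Its log2 difference was 2.52 ± 0.08 from capillary cells (adjusted p = 1.5e-08, edgeR) and 3.14 ± 0.10 from arterial cells. Icam1, the ligand to which rolling leukocytes attach firmly, was at 585, 514, 898 and 937 CPM in venous cells and at 158, 167, 192 and 263 CPM in capillary cells, which gave a difference of 1.95 ± 0.10 (adjusted p = 5.93e-07, edgeR). Vcam1, the partner of the integrin VLA-4, was lower in count (59.8, 45.9, 36.5 and 26.2 CPM) and 1.72 ± 0.26 above capillary cells (adjusted p = 0.0011, edgeR). No venous value of these 3 genes fell within the range of the capillary cells. The share of all tested genes without such overlap was not counted, so separation of values is a description throughout.

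Several of the largest differences were shared by the contrasts with capillary and with arterial cells. The fatty acid chaperone Fabp4 was at 6618, 5868, 5508 and 4047 CPM in venous cells and at 1183, 1040.3, 579 and 534 CPM in capillary cells, a log2 difference of 2.83 ± 0.12 (adjusted p = 1.69e-07, edgeR). Nt5e, which encodes the adenosine-forming ectoenzyme CD73, was at 144, 153, 214 and 282 CPM against 19.6, 23.0, 19.6 and 16.4 CPM, and differed by 3.31 ± 0.18. Fabp4 was spread over 85.7% to 94.7% of venous cells. Cysltr1, a receptor for cysteinyl leukotrienes, was at 78.5, 67.3, 113 and 109 CPM against 6.33, 7.49, 11.3 and 8.21 CPM (log2 difference 3.48 ± 0.14). Lbp, the lipopolysaccharide-binding protein, was at 114, 111, 112 and 132 CPM against 19.6, 20.9, 6.18 and 11.9 CPM (3.05 ± 0.22). Lbp had nearly the same venous level in all 4 libraries, but lymphatic cells held more of it (462, 334, 346 and 326 CPM).

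Tll1, an astacin metalloproteinase related to BMP1, had the largest rise over capillary cells among genes with a mean of at least 50 CPM in venous cells, and its level varied widely between libraries. It was at 17.7, 19.6, 282 and 358 CPM in venous cells and at 2.30, 0.535, 11.8 and 17.9 CPM in capillary cells, and was 4.42 ± 0.17 higher on the log2 scale (adjusted p = 7.07e-08, edgeR). The diet libraries had more than 10 times the level of the LNR and sham libraries in venous cells. Experiment, depth and the Cell Ranger version named in the file headers changed together between the pairs and cannot be told apart. The barcodes of the diet pair do not look like those of the stated 3' chemistry, so the chemistry may differ between the pairs as well, which bears on every level that differs between them. Within each library the venous level was above the capillary level, whereas lymphatic cells had 18.5, 14.8, 227 and 174 CPM.

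**Figure D2:**
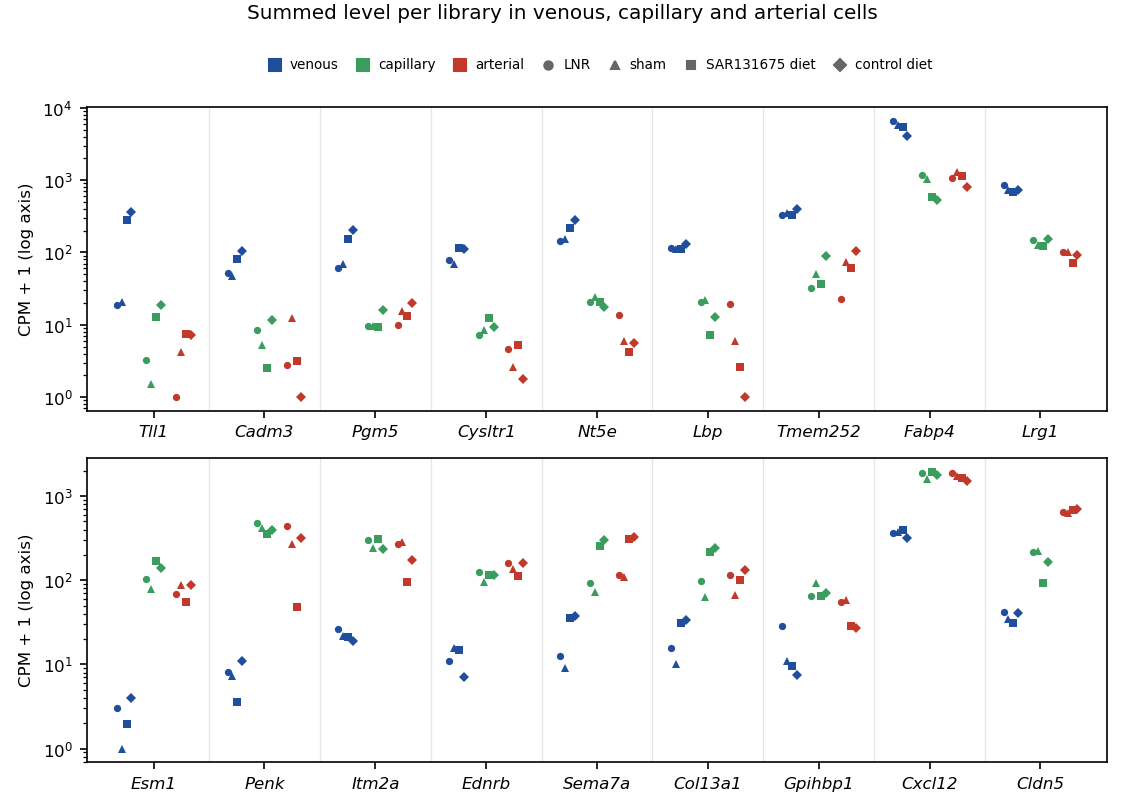
Summed level per library (CPM + 1, log axis) of genes higher (top) and lower (bottom) in venous than in capillary cells, with arterial cells for comparison; color gives the class and the symbol the library. Lrg1 lies at 693 CPM or above in every venous sum and at 152 CPM or below in every capillary and arterial sum, whereas Tll1 differs between the library pairs.

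Many sprouting genes were lower in venous than in capillary cells, as were 5.23% of all genes tested. Of 17 tested genes of tip and sprouting endothelium, 11 fell against capillary cells and none rose, with a median of -0.98 against -0.01 over all genes. Esm1, the tip cell proteoglycan endocan, was at 2.03, 0.00, 0.951 and 3.01 CPM in venous cells, 101, 78.1, 169.9 and 140.4 CPM in capillary cells and 67.1, 88.1, 54.9 and 86.4 CPM in arterial cells, a log2 difference of -6.34 ± 0.27 from capillary cells (adjusted p = 1.58e-07, edgeR). Esm1 was found in 1, 0, 3 and 5 venous cells. Penk, the precursor of enkephalins, was at 7.09, 6.37, 2.54 and 9.89 CPM against 484, 415, 354 and 397 CPM (-5.99 ± 0.18), and the membrane protein gene Itm2a was at 25.3, 20.9, 20.3 and 18.1 CPM against 303, 240.2, 309.9 and 237 CPM (-3.65 ± 0.10). Dll4, the Notch ligand of tip and arterial cells, was at 18.7, 15.0, 45.7 and 54.2 CPM against 54.6, 49.7, 125 and 184 CPM and fell by 1.56 ± 0.11 in venous cells.

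The list of capillary genes split, while 5.23% of all genes tested fell and 6.66% rose against capillary cells. Of 13 tested members, 6 fell in venous cells (Rbp7, Rgcc, Cd300lg, Sparcl1, Gpihbp1 and Tcf15) and 4 rose (Aqp1, Fabp4, Meox2 and Fabp5). Rgcc was at 101, 107, 53.3 and 35.3 CPM against 396, 366, 247 and 265 CPM in capillary cells (-2.12 ± 0.14, adjusted p = 4.65e-06, edgeR). Gpihbp1, which anchors lipoprotein lipase in capillaries, was at 27.9, 10.0, 8.56 and 6.45 CPM against 63.3, 91.5, 64.9 and 70.2 CPM (-2.49 ± 0.30). The water channel Aqp1, listed as a capillary gene, was instead highest in venous cells, at 1465, 1372, 1336 and 1387 CPM against 374, 333, 423 and 373 CPM (1.94 ± 0.07).

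Arterial genes separated venous from arterial cells, between which 7.73% of all genes tested were lower and 6.75% higher in venous cells. Of 20 listed genes, 18 were lower in venous than in arterial cells and none was higher, with a median of -1.84 against 0.03 over all genes. The arterial gene Gkn3 was at 0.00, 0.00, 0.00 and 0.430 CPM in venous cells and at 47.2, 97.9, 49.5 and 57.8 CPM in arterial cells. Hey1, a Notch target, was at 7.60, 6.37, 7.93 and 5.59 CPM against 88.9, 117, 115 and 84.0 CPM (-3.80 ± 0.16, adjusted p = 5.98e-08, edgeR). The tight junction gene Cldn5 was at 40.5, 33.2, 29.8 and 40.4 CPM in venous cells, 217, 225, 91.6 and 162 CPM in capillary cells and 639, 631, 691 and 706 CPM in arterial cells, so that venous cells were the lowest of the 3 classes in every library. Against capillary cells the arterial list split, with 8 genes lower (among them Cxcl12, Dll4 and Hey1) and 7 higher (Edn1, Fbln2, Vegfc, Eln, Stmn2, Ltbp4 and Fbln5). Edn1, the vasoconstrictor endothelin-1, was at 185, 199, 146 and 167 CPM in venous cells and 66.1, 61.5, 37.1 and 79.9 CPM in capillary cells (1.59 ± 0.13, adjusted p = 1.5e-05, edgeR), and did not differ detectably from arterial cells (-0.43 ± 0.18, adjusted p = 0.162, edgeR).

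Hemoglobin transcripts were an exception to this order. Hba-a1, Hba-a2 and Hbb-bt were among the genes most raised in venous over arterial cells, with Hbb-bt between 5.46 and 256 CPM in venous cells against 1.63 to 7.71 CPM in arterial cells. Their venous UMIs lay in few barcodes: the 3 richest held 97.0%, 50%, 89.1% and 90.1% of the Hbb-bt UMIs. Capillary cells had Hbb-bt at 186, 15.0, 94.2 and 255 CPM. This was above the venous level in LNR (116 CPM), sham (5.46 CPM) and on SAR131675 chow, and nearly equal to it on control chow (256 CPM). The part of red cell RNA in this difference was not tested.

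Several receptors of inflammatory cytokines were raised in venous cells, where 6.66% of all genes tested were higher than in capillary cells and 5.23% lower. Of 22 tested cytokine receptors and NF-kB targets, 11 were higher than in capillary cells, 1 (Tnfaip2) was lower and 10 did not pass, with a median of 0.40 against -0.01; against arterial cells 7 were higher and 1 lower. Il6st (gp130, the shared receptor chain of the IL-6 family) was at 997, 997, 1378 and 1611 CPM in venous cells and at 324, 277, 489.6 and 623 CPM in capillary cells (1.63 ± 0.08, adjusted p = 3.3e-07, edgeR). The IL-1 receptor Il1r1 was at 123, 122, 687 and 621 CPM against 55.2, 45.5, 129.7 and 146 CPM (1.90 ± 0.18), and the TNF receptor Tnfrsf1a was at 215, 206, 256 and 238 CPM against 129, 106, 170.4 and 155 CPM (0.77 ± 0.08). Venous values lay above capillary values in every library for these receptors, and Il1r1, like Tll1, was higher in the diet pair.

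Chemokines and cytokines were mixed, while 6.66% of all genes tested were higher than in capillary cells and 5.23% lower. Of 14 tested, Csf3, Csf1, Cxcl1, Cxcl16, Il6 and Cxcl10 were higher than in capillary cells and Cxcl12 and Cx3cl1 were lower; Cxcl1 and Il6 showed no detectable difference from arterial cells (adjusted p = 0.852 and 0.588, edgeR), and Il6 was below its capillary level in the control diet library. Csf3, which encodes the granulocyte growth factor G-CSF, was at 57.7, 12.7, 21.9 and 21.9 CPM in venous cells and at 0.00, 1.07, 2.57 and 0.00 CPM in capillary cells (4.73 ± 0.51, adjusted p = 0.00012, edgeR), with UMIs in 30, 18, 27 and 22 venous cells. Cxcl12, the ligand of CXCR4 that retains stem cells and leukocytes, was at 364, 376, 394 and 317 CPM in venous cells against 1872, 1576, 1919.8 and 1787 CPM in capillary cells and 1884, 1731, 1634 and 1499.8 CPM in arterial cells (-2.25 ± 0.07 from capillary cells, adjusted p = 2.1e-08, edgeR). No venous value of Cxcl12 came within the range of the other classes.

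Permeability and hemostasis genes followed. Of 18 genes of permeability and vasoactive signaling, 9 were higher and 4 lower than in capillary cells (6.66% and 5.23% of all genes tested). The histamine receptor Hrh1 was at 5.06, 8.19, 59.3 and 78.7 CPM against 2.30, 2.67, 12.4 and 21.7 CPM (2.00 ± 0.19), and the platelet-activating factor receptor Ptafr was at 16.7, 17.3, 27.6 and 28.8 CPM against 4.03, 3.21, 6.18 and 5.97 CPM (2.26 ± 0.21, adjusted p = 4.61e-05, edgeR). The prostaglandin transporter Slco2a1 was at 456, 318, 859 and 748 CPM against 183, 183, 359 and 319 CPM, higher in 4 of 4 libraries (adjusted p = 1.45e-05, edgeR). Ednrb, the endothelin B receptor, was lowest in venous cells, at 10.1, 14.6, 14.0 and 6.02 CPM against 123, 95.7, 116 and 114 CPM (-3.25 ± 0.18), opposite to its ligand Edn1. Of 16 hemostasis genes outside the gate, 6 were higher (Ptgs1, Procr, Plat, Pros1, Entpd1 and S100a10) and 1 (F2r) lower. Procr, the receptor of the anticoagulant protein C, was at 154, 133, 71.4 and 63.2 CPM against 58.7, 57.2, 16.5 and 28.4 CPM (1.47 ± 0.14, adjusted p = 4.77e-05, edgeR).

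Notch and matrix genes that passed the test were mostly lower, against 5.23% lower and 6.66% higher over all genes tested. Of 13 Notch genes, 6 were lower than in capillary cells and 1, the ligand Dll1, was higher (27.3, 24.6, 40.6 and 29.2 CPM against 14.4, 10.2, 14.9 and 17.2 CPM). Of 20 basement membrane and matrix genes, 9 were lower and 1 (Nid1) higher. The laminin chain Lama4 was at 47.1, 32.8, 154 and 139.7 CPM against 77.6, 89.9, 402 and 454 CPM (-1.31 ± 0.13, adjusted p = 6.2e-05, edgeR). Of 15 ligands that act on bone cells, 5 were lower (Cxcl12, Dll4, Pdgfb, Bmp6 and Tnfrsf11b) and Bmp4 and Csf1 were higher. Bmp4 was at 68.9, 70.1, 51.1 and 73.1 CPM against 29.3, 26.2, 12.9 and 23.9 CPM (1.58 ± 0.14), and Csf1, which macrophages and osteoclast precursors need, was at 46.6, 40.0, 84.0 and 66.2 CPM against 29.3, 21.4, 27.8 and 41.1 CPM (1.04 ± 0.16). Tnfrsf11b, the decoy receptor osteoprotegerin, was at most 5.91 CPM in venous cells and at least 12.4 CPM in capillary cells (-2.49 ± 0.36).

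Flt4, the target of SAR131675, was near the lower end of detection in venous cells. It was at 8.10, 2.73, 6.03 and 9.89 CPM, in 4.36%, 1.48%, 5.42% and 8.37% of venous cells, against 487, 406, 389 and 424 CPM in lymphatic endothelial cells and was found in 0.242% to 0.385% of non-endothelial cells. Capillary cells had 14.4, 11.2, 23.2 and 21.7 CPM, and the venous level was 1.39 lower on the log2 scale (log2 difference -1.39 ± 0.26, adjusted p = 0.00503, edgeR). Vegfc, a ligand of this receptor, was at 15.2, 10.5, 61.5 and 42.6 CPM in venous cells, above capillary cells (1.17 ± 0.19) and below arterial cells (-1.87 ± 0.15, adjusted p = 7.57e-06, edgeR).

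The remaining lists divided against capillary cells as follows, where 6.66% of all genes tested were higher and 5.23% lower. Of 16 pan-endothelial genes outside the gate, 5 were higher and 2 lower. Of 14 adhesion genes 4 were higher and 4 lower, of 15 VEGF and angiopoietin genes 4 and 3, of 16 BMP and TGF beta genes 3 and 5, of 10 shear and KLF genes 5 and 2, of 15 MHC class II and interferon genes 2 and 2, and of 14 immediate early and stress genes 2 and 4. None of 14 cell division genes passed the test; Mki67 was at 32.4, 56.4, 46.0 and 39.1 CPM in venous cells and 31.6, 63.7, 41.7 and 41.8 CPM in capillary cells. No gene of 10993 showed a venous minus capillary difference that changed between the surgery pair and the diet pair in edgeR (smallest adjusted p = 0.133, 570 genes at an unadjusted p under 0.05).

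**Figure D3:**
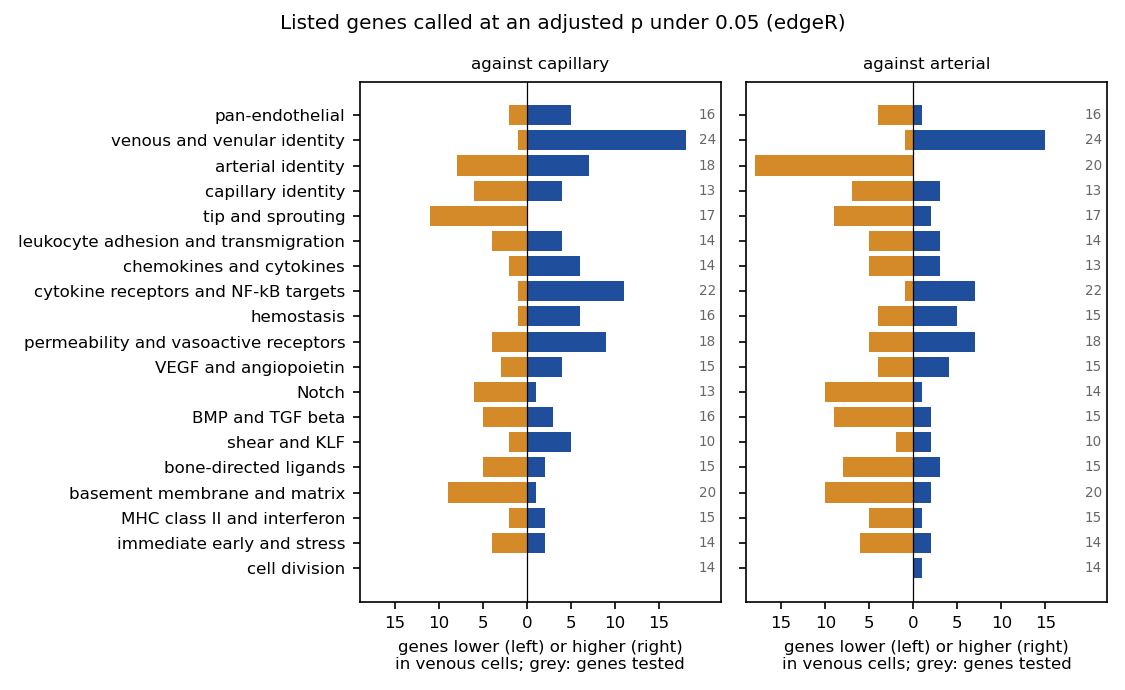
Number of genes of each list that were higher (blue, right) or lower (orange, left) in venous than in capillary cells (left panel) and arterial cells (right panel) at an adjusted p under 0.05 in edgeR, with the number tested in grey. Venous identity genes stand on the right in both panels (18 and 15 of 24), and 18 of 20 arterial genes stand on the left against arterial cells. The lists were chosen with earlier results of these data known.

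Within the venous cells, those with a Sele UMI were compared with those without. There were 270, 291, 275 and 231 Sele-positive and 51, 47, 20 and 20 Sele-negative cells. Sele is a gate gene, so negative cells needed 2 of the other 3 venous genes and positive cells only 1. The groups thus differed by the gate as well. The positive cells were deeper, with median UMIs of 5084.5, 5001, 9865 and 8646 against 4188, 3654, 7281 and 6531.5. Of 8887 genes, 52 were higher in Sele-positive cells (0.585%) and 2 were lower (0.0225%). With each barcode thinned to 1500 UMIs, 44 of 2537 genes passed, 41 higher and 3 lower. Of 4 named genes recomputed there, 1 kept its call and 2 reversed. The part of depth in the difference was not tested beyond this. The comparison rested on single libraries: it gave 17 genes without the sham library and none without the control diet library or within the LNR and sham libraries (609 and 618 genes at an unadjusted p under 0.05 in edgeR). Without barcodes holding 2 or more UMIs of another cell type no gene passed (100 genes at an unadjusted p under 0.05); DESeq2 called 49 genes over all 4 libraries.

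The genes raised in Sele-positive cells included genes induced by cytokines. Sele was picked for this split as the cytokine-induced gene of the gate. Because the lists were chosen with earlier results known, their counts are a description and not an independent check. Of 22 cytokine receptors and NF-kB targets 6 rose (Nfkbiz, Cebpd, Nfkbia, Irf1, Socs3 and Tnfaip3), against 0.585% of all genes tested. The list median was 0.57 against -0.02 over all genes. Of 14 immediate early genes Atf3, Nr4a1, Zfp36 and Fosb rose, and of 10 chemokines and cytokines Ccl2, Il6 and Cxcl1 rose while Ackr3 fell. Nfkbia, the inhibitor that NF-kB induces against itself, was at 1641, 1459.9, 2019 and 2016 CPM in Sele-positive and 1166, 717, 1256 and 1036 CPM in Sele-negative cells (0.80 ± 0.14, adjusted p = 0.0353, edgeR). Ch25h, cholesterol 25-hydroxylase, was at 115, 119, 119 and 114 CPM against 23.1, 6.40, 6.01 and 25.4 CPM (2.97 ± 0.33, adjusted p = 0.00219, edgeR), and Rcan1, an inhibitor of calcineurin, was at 348, 329.8, 311 and 338 CPM against 132, 67.2, 54.1 and 108 CPM (1.91 ± 0.21). Ch25h was almost level over the 4 libraries in Sele-positive cells.

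Icam1 was at 634, 561, 931 and 986 CPM against 319.6, 231, 313 and 267 CPM (1.43 ± 0.18, adjusted p = 0.00376, edgeR). Il6 was at 263, 227, 270.2 and 171 CPM against 102, 48.0, 156 and 57.2 CPM (1.46 ± 0.21), and the neutrophil chemokine Cxcl1 was at 320.1, 358, 204 and 108 CPM against 188, 89.7, 6.01 and 44.5 CPM (1.65 ± 0.33, adjusted p = 0.049, edgeR). The monocyte chemokine Ccl2 was at 142, 99.2, 15.4 and 18.4 CPM against 36.2, 16.0, 0.00 and 0.00 CPM. For Icam1 and Il6 the positive values lay above the negative ones in all 4 libraries, and for Icam1 and Ch25h the groups did not overlap. H2-Ab1 and Hba-a2 also rose, but the 3 richest venous barcodes held 76.3% to 82.8% of the H2-Ab1 UMIs and 63.0% to 96.2% of the Hba-a2 UMIs, against 11.8% to 16.7% for Ch25h.

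The promoters of Sele and of 4 of these genes are shown as searched for a narrow pattern of NF-kB letters. The windows of the 4 genes held a match to this pattern and that of Sele did not. All 4 are among the 6 raised genes with a match, so they do not stand for the 39 raised genes searched. Sites with other letters were not searched, so a window without a match may still hold one. Each window runs from 250 bases before to 50 bases after the gene start in the RefSeq table of build GRCm38.p6. Capitals mark matches to GGGA and TTCC with any 1 or 2 bases between them, on either strand. The build differs from GRCm39, which the submitters' notes name for the counts, so these positions belong to the RefSeq table only.
Sele, chr1:164047984-164048283, plus strand: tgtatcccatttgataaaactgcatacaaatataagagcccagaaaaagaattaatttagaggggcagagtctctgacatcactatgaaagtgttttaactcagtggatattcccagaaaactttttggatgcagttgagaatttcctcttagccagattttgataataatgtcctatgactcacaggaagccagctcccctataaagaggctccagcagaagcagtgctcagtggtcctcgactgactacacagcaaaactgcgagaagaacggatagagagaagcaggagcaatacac
Il6, chr5:30012864-30013163, plus strand: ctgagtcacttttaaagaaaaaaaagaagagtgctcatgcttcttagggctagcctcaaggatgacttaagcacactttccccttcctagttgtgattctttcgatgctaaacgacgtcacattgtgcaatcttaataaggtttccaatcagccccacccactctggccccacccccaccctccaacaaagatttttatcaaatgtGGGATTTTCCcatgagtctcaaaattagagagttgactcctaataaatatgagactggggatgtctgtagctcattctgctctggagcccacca
Cxcl1, chr5:90890995-90891294, plus strand: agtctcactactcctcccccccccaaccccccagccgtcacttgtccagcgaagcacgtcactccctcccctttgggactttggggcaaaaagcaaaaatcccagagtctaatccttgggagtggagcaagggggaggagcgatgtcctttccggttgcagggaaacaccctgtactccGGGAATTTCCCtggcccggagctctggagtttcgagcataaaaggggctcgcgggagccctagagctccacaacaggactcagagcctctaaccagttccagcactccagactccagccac
Nfkbia, chr12:55492598-55492897, minus strand: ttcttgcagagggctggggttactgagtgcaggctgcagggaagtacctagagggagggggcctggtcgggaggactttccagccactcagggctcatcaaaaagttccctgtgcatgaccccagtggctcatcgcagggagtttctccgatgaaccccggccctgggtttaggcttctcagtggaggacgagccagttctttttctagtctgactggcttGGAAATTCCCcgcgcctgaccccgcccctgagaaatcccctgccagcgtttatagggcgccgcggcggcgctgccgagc
Tnfaip3, chr10:19015361-19015660, minus strand: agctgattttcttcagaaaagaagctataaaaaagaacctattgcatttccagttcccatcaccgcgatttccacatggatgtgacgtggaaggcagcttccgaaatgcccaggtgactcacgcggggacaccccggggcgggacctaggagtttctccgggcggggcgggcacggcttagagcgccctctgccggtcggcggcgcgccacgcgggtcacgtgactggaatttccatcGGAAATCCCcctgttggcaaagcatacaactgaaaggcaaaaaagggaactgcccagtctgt

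The match lay 44 to 35 bases before the start of Il6, 29 to 20 bases before that of Nfkbia and 12 to 4 bases before that of Tnfaip3, the last 2 on the opposite strand. In Cxcl1, matches on both strands overlapped between 71 and 61 bases before the start, and another Tnfaip3 start in the table had none. Of the 39 genes higher in Sele-positive cells that had a promoter in the table, 6 held a match (Il6, Cxcl1, Casp4, Tnfaip3, Sbno2 and Nfkbia; 15.4%), against 4.43% of 7044 tested genes and 3.12% of all 32851 promoters. Genes higher in venous than in capillary cells held a match in 5.44% and genes lower in 4.33%. A match describes the letters and not binding.

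The members were also split by Ackr1. There were 222, 231, 203 and 171 Ackr1-positive and 99, 107, 92 and 80 Ackr1-negative cells, with median UMIs of 4908, 4745, 9825 and 9086 against 5056, 4782, 9402 and 6899.5. Of 9390 genes, 169 were higher in Ackr1-positive cells (1.80%) and 79 were lower (0.841%). The number was 152 without the sham library and 86 without the control diet library, 18 with thinned barcodes and 28 without barcodes holding 2 or more UMIs of another cell type. With at least 3 of 4 venous genes it was 143. Ackr1 is a gate gene, so all 612 members with 4 venous genes were Ackr1-positive. Lrg1, Tll1, Fabp4 and Nr2f2 were higher in cells with 4 than with 2 venous genes in each library. The split is thus not independent of the gate, and the part of this in its differences was not tested.

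Of 24 venous identity genes 9 were higher in Ackr1-positive cells (Lrg1, Tll1, Nr2f2, Bgn, Il6st, Ptgs1, Nrp2, Tmem252 and Slco2a1) and none was lower. Over all genes tested 1.80% were higher and 0.841% lower. Of 11 capillary genes, Fabp4, Aqp1 and Meox2 were higher and Gpihbp1, Rbp7 and Cd300lg lower, and of 14 arterial genes 4 were higher (Fbln5, Edn1, Fbln2 and Eln) and 3 lower (Cxcl12, Dll4 and Efnb2). Lbp was at 143, 154, 146 and 170.4 CPM against 54.6, 31.9, 36.0 and 18.5 CPM (2.11 ± 0.21, adjusted p = 0.000587, edgeR), and Fabp4 was at 8119, 7525, 6976 and 4985 CPM against 3493, 2884, 2208 and 1319 CPM (1.53 ± 0.11, adjusted p = 5.14e-05, edgeR). Fgl2, a fibrinogen-like prothrombinase, was at 159, 201, 104 and 93.0 CPM against 93.7, 51.0, 14.4 and 16.8 CPM (1.79 ± 0.26). For Lbp and Fabp4 the groups did not overlap. Nr2f2 was at 318, 337, 582 and 557 CPM against 197, 166, 321 and 223 CPM (0.97 ± 0.13), higher in each library.

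Genes lower in Ackr1-positive cells included Cldn5, Cxcl12, Dll4, Igfbp3 and the collagen IV chains Col4a1 and Col4a2. Cldn5 was at 21.0, 13.4, 17.4 and 16.8 CPM against 81.2, 68.8, 57.7 and 109 CPM (-2.17 ± 0.19, adjusted p = 0.000251, edgeR). Cxcl12 was at 301, 328, 274 and 269 CPM against 493, 464, 664 and 457 CPM (-0.83 ± 0.12, adjusted p = 0.00394, edgeR). Both groups of values were separate for these genes. Unlike in the Sele split, Ccl2 was lower in the positive cells (95.9, 56.6, 7.33 and 18.5 CPM against 189, 143, 30.9 and 13.4 CPM, -1.12 ± 0.23, adjusted p = 0.0248, edgeR), although the control diet library went the other way. No immediate early gene passed the test in this split in edgeR. The Igfbp3 difference (-1.56 ± 0.29) lost the threshold without the sham library (adjusted p = 0.055, edgeR).

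**Figure D4:**
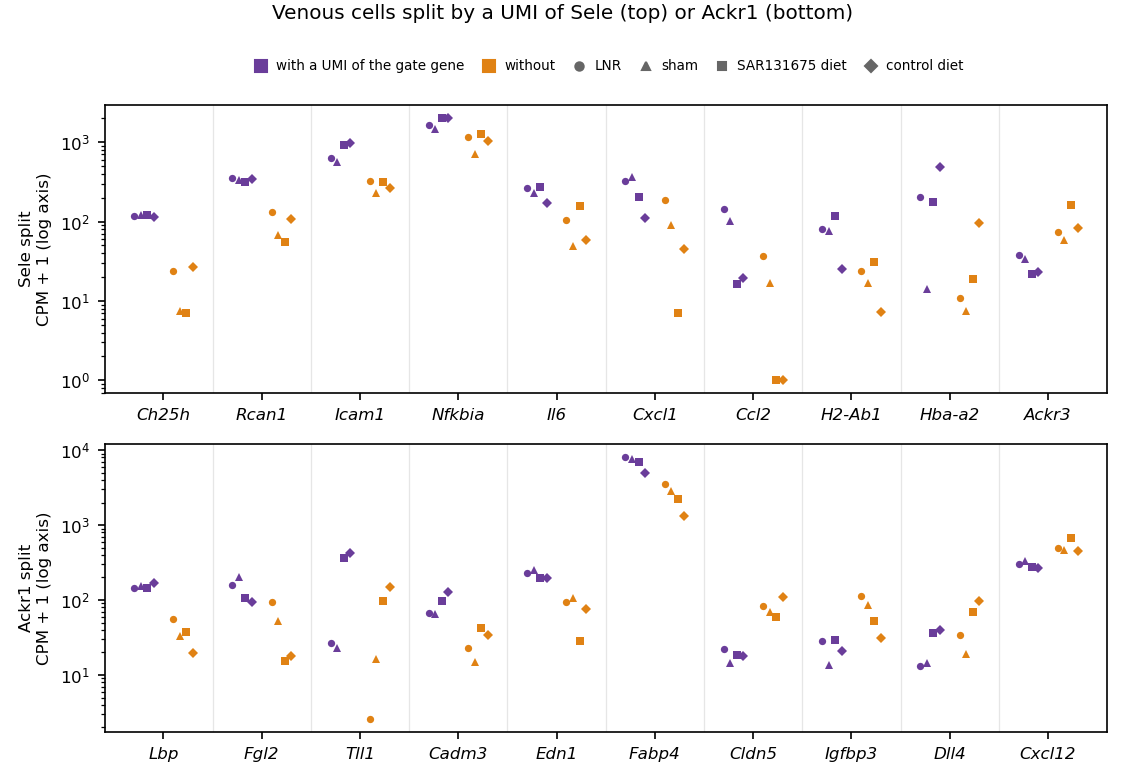
Summed level per library (CPM + 1, log axis) in venous cells with (purple) and without (orange) a UMI of Sele (top) or of Ackr1 (bottom); symbols give the library. Ch25h, Icam1 and Lbp are separate between the groups, whereas Hba-a2 is higher in each library but overlaps between libraries.

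The treatments were compared within the venous cells as values without a test. Between SAR131675 and control chow, 99 of 9302 genes with at least 50 UMIs were more than 2-fold higher (1.06%) and 90 were lower (0.968%), and between LNR and sham 60 of 7814 were higher (0.768%) and 113 lower (1.45%). The balance of directions depended on the barcodes kept: without called doublets 40 were higher and 94 lower on SAR131675 chow, and without barcodes holding 2 or more UMIs of another cell type 38 were higher and 133 lower on SAR131675 chow and 17 higher and 5 lower in LNR. Doublets were called in 4.67% of kept cells on SAR131675 chow and 0.907% on control chow. Their removal thus filtered the 2 diet libraries unequally, which limits every diet ratio given without doublets. Both rates lay below the expected 23.3% and 19.2%, so such ratios may still hold doublets. Genes of other cell types were among the largest ratios. On SAR131675 chow, the cartilage gene Comp had 100 UMIs against 3, and 88.0% of the 100 lay in 3 barcodes. On control chow, Cst6 had 948 UMIs against 85, and 95.1% of the 948 lay in 3 barcodes. Flg, a gene of the cornified skin layer, had 9 UMIs in LNR and 137 in sham cells, and the hemoglobin gene Hbb-bt had 230 UMIs against 12, with 97.0% of the 230 in 3 LNR barcodes.

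Among genes found in at least 20% of members of either library, a limit chosen after the values were seen, 9 were over 2-fold higher and 14 lower on SAR131675 chow of 6311, and none was higher and 3 (Prg4, Wfdc17 and Cst6) were lower in LNR of 3718. A gene could pass this limit through the library where it was higher, as Dkk2 (23.4% against 11.2% of cells), Adamts6 (21.7% against 7.97%), Stmn1 (21.7% against 16.7%) and Zbtb16 (12.9% against 25.1%) did, so that the counts and the values of these genes are descriptions of genes picked for their difference. By contrast, Sox18 passed it in both libraries. Sox18, a transcription factor of blood and lymphatic endothelium, had 429 UMIs in 59.7% of venous cells on SAR131675 chow and 150 UMIs in 37.1% on control chow, a log2 ratio of 1.08 (95% interval 0.81 to 1.36). The ratio was of the same size in capillary cells (1.08, 0.75 to 1.42) and in non-endothelial cells (1.10), and was 0.85 in arterial and 0.70 in lymphatic cells. Between LNR and sham the Sox18 ratio was 0.69 (0.35 to 1.05) in venous and 0.21 (-0.11 to 0.53) in capillary cells. It was -0.32 (-0.79 to 0.15) in arterial and 0.21 (-0.08 to 0.50) in lymphatic cells.

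The other 8 genes were Col3a1, Col5a2, Prg4 and Gsn, which fibroblasts and joint tissue express strongly, Cdk14, Dkk2, Adamts6 and Stmn1. The summed fibroblast and bone markers were at 416 CPM on SAR131675 chow and 107 CPM on control chow. Without called doublets, a filter that acted more on the SAR131675 library, the ratios of Col3a1, Col5a2, Prg4, Gsn and Cdk14 were 0.29, 0.67, 0.98, 0.59 and 0.65. The 14 lower genes included Lor, Sbsn, Dmkn, Krtdap, Calm4, Ly6d and Cst6 of keratinocytes and the hemoglobin genes Hbb-bs and Hba-a1. Dkk2, a modulator of Wnt signaling, had a log2 ratio of 1.28 (0.85 to 1.74), the metalloproteinase Adamts6 1.51 (0.98 to 2.07) and the tubulin regulator Stmn1 1.45 (1.03 to 1.89), and without doublets these were 1.29, 1.30 and 1.44. In capillary cells Adamts6 and Stmn1 had ratios of 0.15 (-0.38 to 0.70) and 0.27 (-0.16 to 0.72), and Dkk2 1.32 (0.16 to 2.66). In arterial cells they had ratios of 0.10 (-0.38 to 0.58), 0.87 (0.38 to 1.38) and, for Dkk2, 0.66 (-0.03 to 1.39), and in lymphatic cells 0.01 (-0.57 to 0.59), -0.46 (-0.86 to -0.07) and 0.55 (-0.15 to 1.28). In non-endothelial cells the ratios of Adamts6, Stmn1 and Dkk2 were 0.03, 0.63 and 0.07. The transcription factor Zbtb16 was lower on SAR131675 chow, with ratios of -1.05 in venous, -1.70 in capillary, -1.23 in arterial and -1.34 in lymphatic cells. Its ratio in non-endothelial cells was -0.89. The venous ratio of Zbtb16 was -1.83 without doublets. It was -2.74 (11 against 60 UMIs) without barcodes holding 10 or more UMIs of another cell type, a limit chosen after the data were seen. Whether venous and other cells differed in these ratios was not tested. Stmn1 was lower in LNR than in sham cells (-0.57, -0.85 to -0.30).

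Of 12 chemokines and cytokines with at least 50 UMIs, Cxcl2 alone passed 2-fold on SAR131675 chow, with 50 UMIs against 16 (95% interval of the log2 ratio 0.37 to 2.12; log2 ratio 0.18 without called doublets). Il6 had 833 UMIs against 380 (log2 ratio 0.69, 0.52 to 0.87) and Cxcl1 610 against 242 (0.89, 0.68 to 1.12), whereas Icam1 was nearly level (-0.06, -0.14 to 0.02). Arterial cells had ratios of 0.90 for Il6 and 0.88 for Cxcl1, and capillary cells 0.04 and -0.09. Among the gate genes, as a description, Sele was at -0.40, Ackr1 at -0.09, Selp at -0.04 and Vwf at -0.06.

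In LNR against sham, Csf3 had 114 UMIs in 30 cells against 28 in 18 cells (log2 ratio 2.18, 1.57 to 2.83), with 40.4% of the LNR UMIs in 3 barcodes and a ratio of 3.29 (97 against 8 UMIs) without barcodes at that limit of 10 UMIs, and the basement membrane gene Nid2 had 45 UMIs in 28 cells against 12 in 11 cells (2.06, 1.12 to 3.12). Of 16 pan-endothelial genes outside the gate, 12 had an interval above 0 and none below, and the median was 0.31 against 0.01 over all genes. Of 20 basement membrane and matrix genes 14 had an interval above 0 and 1 below, with a median of 0.44. Of all 7803 genes outside the gate, 7.74% had an interval above 0 and 6.92% below. The shift was not particular to these lists. Of 14 immediate early and stress genes 9 lay above 0 and 1 below, and of 16 hemostasis genes 7 above and 0 below. The Notch and cell division lists, with 10 genes each, instead had 0 above and 2 and 3 below. On SAR131675 chow the pan-endothelial and matrix lists had 3 and 7 intervals above 0 and 3 and 1 below, against 9.51% and 8.73% of 9292 genes. Keratinocyte markers summed to 3266 CPM in LNR and 5418 CPM in sham venous cells, and their part in the LNR ratios was not tested. Flt4 had 19 against 23 UMIs on SAR131675 chow (-0.71, -1.67 to 0.23) and 16 against 6 in LNR (1.57, 0.14 to 3.21).

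Of the 24 venous identity genes none passed 2-fold in either pair, with medians of -0.05 and 0.09. Of all genes, 1.06% were higher and 0.968% lower by this limit on SAR131675 chow, and 0.768% and 1.45% in LNR. A list of 24 would thus hold few such genes. On SAR131675 chow 6 of the 24 had an interval above 0 and 6 below, against 9.51% and 8.73% of all genes outside the gate. In LNR 7 lay above 0 and 0 below, against 7.74% and 6.92%. The log2 ratios of Nr2f2 were 0.09 (-0.02 to 0.20) and 0.01 (-0.16 to 0.18), and those of Lrg1 were -0.08 (-0.17 to 0.01) and 0.20 (0.10 to 0.30).

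**Figure D5:**
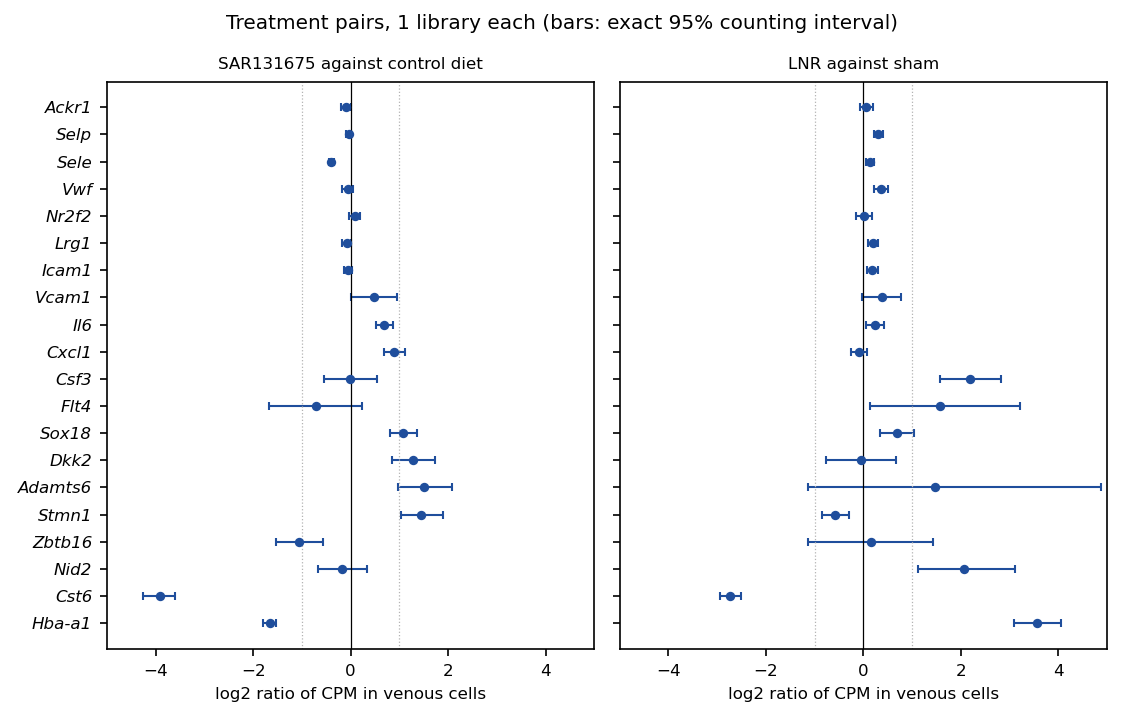
Log2 ratio of CPM in venous cells between SAR131675 and control chow (left) and LNR and sham (right), 1 library each, with exact 95% counting intervals as bars and dotted lines at 2-fold. Nr2f2, Lrg1 and Icam1 lie near 0 in both panels, Sox18 and Dkk2 lie right of 1 on the left, and Csf3 lies at 2.18 on the right.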

How the data were processed

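Single-cell 3' RNA libraries of mouse digits were used as deposited. The authors aligned and counted reads with Cell Ranger to GRCm39 (version 6.1.2 in the processing notes; the file headers of the diet pair name 8.0.1) and deposited the UMI counts without normalization, by gene and barcode. No deposited barcode had fewer than 500 UMIs.

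Barcodes with 200 to 5500 genes, at most 30000 UMIs and at most 10% mitochondrial UMIs were kept. The upper limits removed 2.42%, 2.28%, 16.2% and 14.3% of barcodes. Doublets were called with Scrublet in scanpy 1.11.5 and kept. The members and gene lists were chosen with earlier results of these data known. UMIs were summed per library and class, and tested in edgeR 4.0.16 (quasi-likelihood, library as block, Benjamini-Hochberg adjustment, threshold 0.05) with R 4.3.3. Each sum is a pool of mice, so p-values measure the spread among 4 libraries. On simulated counts for the capillary contrast (10983 genes), 64.2% of genes changed by 1 on the log2 scale and 100% of those changed by 2 were recovered. For the arterial contrast (10903 genes) these were 46.8% and 100%. The simulation gave every gene the same fixed dispersion, not taken from these data, so these rates describe the simulated setting only.

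Named genes were the 10 largest differences in each direction (6 in the splits within venous cells, 5 in the treatment pairs) past the test, at 50 CPM or more and alike in 4 of 4 libraries, up to 4 genes per list, and genes given as descriptions; genes of the pairs needed 100 UMIs, and Dkk2, Adamts6, Stmn1, Zbtb16, Sox18 and Nid2 were named after their values were seen. Ratios between conditions have exact conditional intervals. Alternatives were DESeq2 1.42.0, other scaling, filters, gates, thinning, and omission of libraries, doublets or barcodes with UMIs of other cell types.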

Additional observations from a re-analysis of the deposited data

How the results depend on the processing

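The counts of genes and the shares were recomputed under the alternatives, and those that moved are given here. The capillary contrast (1307 genes) had 866 genes with DESeq2, 834 within LNR and sham, 680 with thinning to 1500 UMIs, 463 without barcodes holding 2 or more UMIs of another cell type, and 725 to 1186 when 1 library was left out, the fewest without the SAR131675 diet library. The arterial contrast (1568) had 682 within LNR and sham, 220 with thinning, 357 without such barcodes, and 936 to 1476 with 1 library left out, the fewest without the control diet library. The Sele split (54) had 294 without a filter on low counts, 26 within the diet pair, 9 when the upper limits on genes and UMIs were dropped, 22 at 4 of 5 endothelial genes, and 0 to 48 with 1 library left out (17 without sham, 0 without control diet). It had 0 within LNR and sham and 0 without barcodes of mixed type (618 and 100 genes at an unadjusted p under 0.05 in edgeR). The Ackr1 split (248) had 671 without a filter, 152 with DESeq2, 146 within the diet pair, 99 without upper limits, 143 with 3 of 4 venous genes, 18 with thinning, 28 without barcodes of mixed type, and 86 to 217 with 1 library left out (152 without sham, 86 without control diet). The cause of these changes was not tested.

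Without barcodes of mixed type the log2 ratio of the venous share between SAR131675 and control chow was -0.70 of kept cells (22 of 277 against 48 of 373 cells) and -0.49 of blood endothelial cells. With the limit at 10 UMIs, chosen after seeing the data, these were -0.09 and -0.14. The genes past 2-fold on SAR131675 chow (189) numbered 599 at 20 UMIs, 74 at 100 UMIs, 285 without upper limits, 30 with thinning, 59 at the 10 UMI limit and 23 among genes found in at least 20% of members. Those in LNR (173) numbered 511 and 59 at these UMI minimums, 114 with 3 of 4 venous genes, 17 with thinning, 22 without barcodes of mixed type, 50 at the 10 UMI limit and 3 among genes found in at least 20% of members.

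Of 73 named genes in the capillary contrast, 1111 of 1151 recomputed values kept direction and call, 39 lost the call and 1 reversed; in the arterial contrast these were 276 of 281, 4 and 1, in the Sele split 66 of 112, 40 and 6, and in the Ackr1 split 151 of 173, 21 and 1. In the pairs, 14 of 45 values on SAR131675 chow and 16 of 43 in LNR stayed close, 23 and 19 moved and 8 and 8 reversed. Some log2 differences reversed. Iigp1 was -0.18 against capillary cells without barcodes of mixed type, and Hba-a1 -0.46 against arterial cells at the 10 UMI limit. In the Sele split, Hba-a2 was -1.05 and Hba-a1 -0.89 with thinning, H2-Ab1 -0.68 without doublets, and Ly6g6c 0.38 without upper limits, 0.71 with 3 of 4 venous genes and 0.013 with 4 of 5 endothelial genes. In the Ackr1 split, Elovl6 was 0.18 at the 10 UMI limit. On SAR131675 chow, Myoc was -0.39, Defb6 0.77 and Krt79 1.01 without upper limits, H2-Eb1 -1.31 without doublets, Prg4 -0.67 without barcodes of mixed type, and H2-Eb1 -0.30, Cst6 0.40 and Krt79 0.40 at the 10 UMI limit. In LNR without doublets, Hbb-bt was -0.27, Hba-a2 -0.56, Hba-a1 -0.78 and Hbb-bs -0.18. Without barcodes of mixed type Hbb-bs was -0.25 and Cst6 0.56, and at the 10 UMI limit Cst6 was 0.77 and Wfdc21 0.048. Values of the pairs were recomputed where at least 10 UMIs remained.

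No paired analysis was possible because each condition had 1 library; the library was the block in the comparisons of cell classes.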
